A study of Mus musculus with 8 samples.

Results

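The neurofilament genes and their partner alpha-internexin form the neuronal branch of the intermediate filament family, and they were followed here in the embryonic striatal primordium after loss of the transcription factor Meis2. The set consists of 4 genes taken by symbol, Nefl, Nefm, Nefh and Ina, of which 3 (Nefl, Nefm and Ina) matched a row of the authors' deposited table of 16913 genes; Nefh was not analysed here. RNA came from lateral ganglionic eminence (LGE), the germinal zone and mantle that give rise to striatal projection neurons, dissected at embryonic day 14.5 from mice of mixed C57BL/6J and CD1 descent. The 4 Meis2-CKO samples carried Dlx5/6-Cre and a floxed allele on both copies of Meis2 (Dlx5/6-Cre;Meis2F/F). The 4 Ctrl samples, from littermates, carried the same driver and 1 floxed copy (Dlx5/6-Cre;Meis2F/+), so Cre was present in both genotypes and the Ctrl tissue was not wild type. Dlx5/6-Cre acts in Dlx-expressing cells of the ventral forebrain, and other cells of the dissected tissue keep their alleles. The values used are the authors' means per genotype; columns of single libraries were not used, because their names match no sample label, so no spread between embryos stands beside any value, and the sequencing depth is unknown.

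Neurofilaments are the main intermediate filaments of axons. Nefl encodes the light chain, which forms the core of the filament, Nefm and Nefh encode the medium and heavy chains, whose long tails project from it and take part in setting axon calibre, and Ina encodes alpha-internexin, which co-assembles with them. In the developing brain, dividing progenitors use filaments of nestin and vimentin, alpha-internexin appears early in postmitotic neurons, and the neurofilament chains accumulate as axons grow and mature.

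The lower level of Meis2 itself set the genotypes apart as labelled. Meis2 in the authors' deposited table averaged 140 in Meis2-CKO and 204 in Ctrl with a log2 fold change of -0.53 and an adjusted p of 0.00195; the value covers the whole gene, so transcripts without the floxed part may still be counted. In the authors' deposited table the Y-linked gene Eif2s3y averaged 14.0 in Meis2-CKO and 50.5 in Ctrl, and Xist averaged 256 in Meis2-CKO and 78.0 in Ctrl. Embryo sex is not among the labels, and the part of these differences in the results that follow was not tested.

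All 3 analysed filament genes had lower means in Meis2-CKO, and Nefl was lower by the largest factor. Nefl in the authors' deposited table averaged 2.99 in Meis2-CKO and 11.0 in Ctrl, which left 27.2% of the Ctrl mean (log2 fold change -1.83, adjusted p = 0.00202). Nefm in the authors' deposited table averaged 12.7 in Meis2-CKO and 26.2 in Ctrl, or 48.3% of the Ctrl mean (log2 fold change -1.03, adjusted p = 0.00238). Both neurofilament chains thus passed the authors' adjusted p of 0.05 as lower, the light chain by 3.54-fold and the medium chain by 2.04-fold.

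Ina had the smallest relative difference of the analysed genes. Its authors' mean was 47.4 in Meis2-CKO and 63.5 in Ctrl, or 74.6% of the Ctrl mean (log2 fold change -0.41), and it did not pass in the authors' deposited table (unadjusted p = 0.00339, adjusted p = 0.333). The set was chosen by the deposited fold changes and p-values of this same contrast, so these values describe the genes and are not an independent test. Among all 16913 genes, 0.544% were called lower and 0.237% were called higher, and nothing is read from the count of 2 called filament genes against that background.

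**Figure D1:**
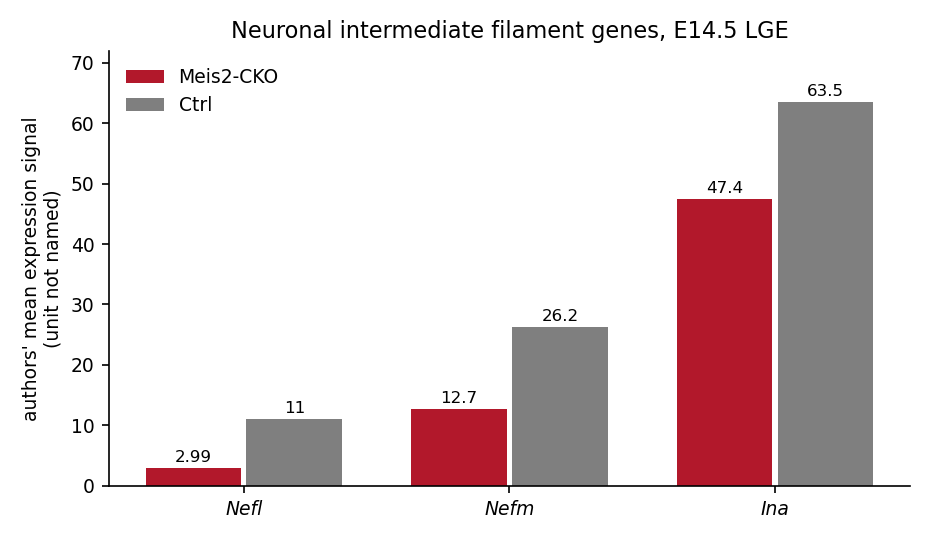
Bars give the authors' mean expression signal of each gene (y axis, unit not named in the files) in Meis2-CKO (red) and Ctrl (grey), with the mean printed above each bar; no error bars are drawn because only the genotype means were used. Nefl stood at 2.99 in Meis2-CKO against 11.0 in Ctrl, Nefm at 12.7 in Meis2-CKO against 26.2 in Ctrl, and Ina at 47.4 in Meis2-CKO against 63.5 in Ctrl.

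The order of the levels was the same in both genotypes, with Ina highest, Nefm next and Nefl lowest, and it ran opposite to the order of the relative differences. The absolute differences followed the order of the levels: the Meis2-CKO mean minus the Ctrl mean was -8.01 for Nefl, -13.5 for Nefm and -16.1 for Ina. The sum of the 3 means was 63.1 in Meis2-CKO and 101 in Ctrl. Alpha-internexin made up 75.2% of this summed signal in Meis2-CKO and 63.1% in Ctrl, whereas the light chain made up 4.74% in Meis2-CKO and 10.9% in Ctrl. The medium chain contributed 20.1% in Meis2-CKO and 26.0% in Ctrl.

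Expressed as ratios between the genes, the mean signal of Ina was 15.9 times that of Nefl in Meis2-CKO and 5.78 times in Ctrl. The mean of Nefm was 4.23 times that of Nefl in Meis2-CKO and 2.38 times in Ctrl. Such comparisons between genes assume a signal scaled to transcript length. Coding genes were split into 5 bins by exon length. The shortest bin had a median length of 1745 nt and a median Ctrl signal of 9.41, and the longest had 10068 nt and 14.2. Each bin holds different genes, so these medians cannot show whether the signal is so scaled. The annotated exons of Nefl, Nefm and Ina cover 3380, 5782 and 3240 nt, the value for Nefm being the union of its transcripts.

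Set among 13574 protein-coding genes of at least 300 nt of exon, Nefl exceeded 23.5% of genes by its Meis2-CKO mean and 46.7% by its Ctrl mean. Nefm exceeded 50.6% of them in Meis2-CKO and 70.8% in Ctrl, and Ina exceeded 84.9% in Meis2-CKO and 89.5% in Ctrl. Ranked by the deposited log2 fold change among the 12151 of these genes with a mean of at least 1 in either genotype, Nefl was the 24th lowest, Nefm the 65th and Ina the 404th. In bulk tissue, fewer neurons that express a gene and less RNA per neuron cannot be told apart.

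**Figure D2:**
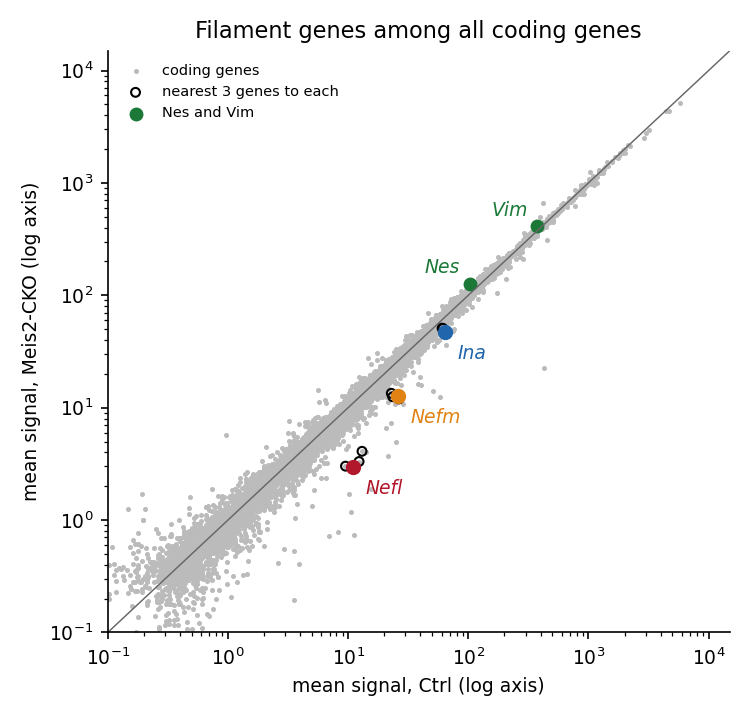
Each grey point is a protein-coding gene with a mean of at least 0.1 in both genotypes, with its mean signal in Ctrl on the x axis and in Meis2-CKO on the y axis (both log axes); the line marks equal means. Nefl, Nefm and Ina lie under the line at progressively smaller distances, whereas Nes and Vim (green) lie slightly above it; open circles are the 3 coding genes nearest to each of the coloured filament genes.

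By distance in the plane of the log2 means of the 2 genotypes, the coding genes nearest to Nefl, out of 13558 searched, included Rph3a and Kdm5d. Genes picked by this distance have a lower Meis2-CKO mean by construction, so their values are a description only. Rph3a, which encodes the Rab effector rabphilin, averaged 3.02 in Meis2-CKO and 9.51 in Ctrl in the authors' deposited table (adjusted p = 0.0261). Kdm5d, at 4.09 in Meis2-CKO and 13.1 in Ctrl, is Y-linked and is one of the genes whose means differ with the uneven sex-linked signal.

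The genes nearest to Nefm were Syt6, Socs2 and Olfm2, and those nearest to Ina were Klhl13, Scand1 and Kidins220. Syt6, a synaptotagmin gene, averaged 11.96 in Meis2-CKO and 26.5 in Ctrl in the authors' deposited table (adjusted p = 0.000541), at a distance of 0.083 log2 units from Nefm. Klhl13, an adaptor of a ubiquitin ligase, lies on chromosome X. It averaged 44.9 in Meis2-CKO and 64.5 in Ctrl in the authors' deposited table (adjusted p = 0.0357), at 0.081 log2 units from Ina. Scand1 averaged 50.7 in Meis2-CKO and 61.4 in Ctrl, and Kidins220 averaged 51.0 in Meis2-CKO and 60.55 in Ctrl. Neither Scand1 nor Kidins220 was called. Socs2 averaged 12.5 in Meis2-CKO and 23.5 in Ctrl, and Olfm2 averaged 13.4 in Meis2-CKO and 22.9 in Ctrl. Likeness here rests on 2 genotype means only. These genes were picked by those means, so their lower Meis2-CKO means follow from the choice and are not a separate result.

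Nefl and Nefm are neighbours on chromosome 14, and their annotated transcripts touch. In GENCODE M21 on GRCm38, Nefl (ENSMUSG00000022055) lies at 68083863 to 68089095 on the plus strand and Nefm (ENSMUSG00000022054) at 68082590 to 68124846 on the minus strand. The shorter Nefm transcript, Nefm-201, ends 30.2 kb from the end of Nefl and shares no exon with it. The longer one, Nefm-202, reads on through the intergenic interval, and its last exon covers 1108 nt of the first exon of Nefl (68083863 to 68084970), which is 32.8% of the exonic length of Nefl. In the RefSeq annotation of GRCm38.p6, Nefm spans 68119545 to 68125004 and does not reach Nefl.

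Strand is not stated for the counting, and no source used here names the annotation the authors counted on, so reads from this shared stretch cannot be assigned to one gene with certainty. Among the spliced transcripts of GENCODE M21, 1059 stretches of 50 nt were common to Nefl and Nefm, all on opposite strands. No other annotated gene shared a stretch of 50 nt with Nefl. Nefm shared between 1 and 4 such stretches each with 4 further genes, and no stretch was shared between Ina and either neurofilament gene. Ina shared 407 with Nt5c2, an overlapping gene on the opposite strand.

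**Figure D3:**
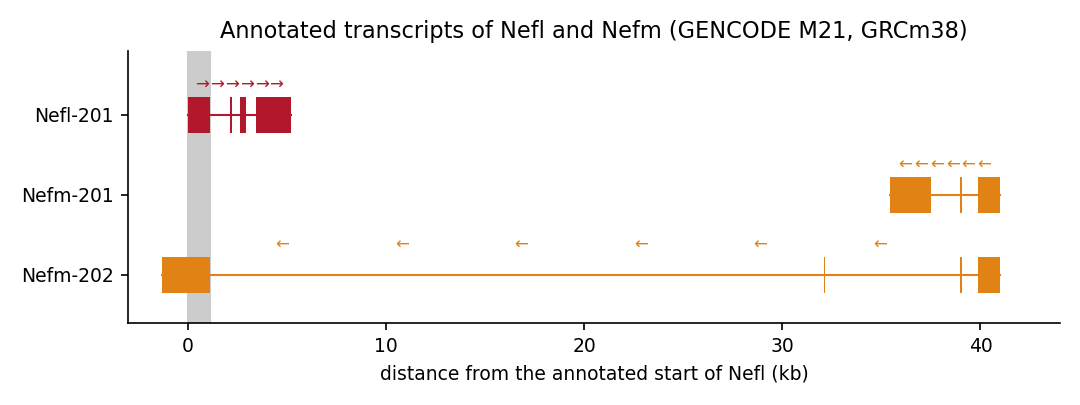
Annotated transcripts of Nefl and Nefm (GENCODE M21, GRCm38) against the distance from the start of Nefl in kb; boxes are exons, lines are introns and arrows give the direction of transcription. The grey band marks the 1108 nt that the last exon of Nefm-202 shares with the first exon of Nefl; Nefm-201 lies outside it.

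Other genes around the neurofilament pair were not called. Within 1000 kb of Nefl the annotation holds 10 coding genes, of which 7 were analysed, and Nefm was the only one of these that passed. Dock5, a Rac exchange factor and the nearest analysed gene on one side, averaged 0.31 in Meis2-CKO and 0.82 in Ctrl in the authors' deposited table, with a log2 fold change of -1.11 (unadjusted p = 0.333). Stc1, the nearest on the other side and a gene for a secreted glycoprotein, averaged 2.92 in Meis2-CKO and 2.06 in Ctrl in the authors' deposited table, with a log2 fold change of 0.49. The remaining ones were Ebf2, Cdca2, Kctd9 and Gnrh1, with log2 fold changes between -0.50 and 0.33.

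Ina (ENSMUSG00000034336) lies on the plus strand of chromosome 19, at 47014698 to 47025327. Its first exon shares 456 nt, 14.1% of its exonic length, with an exon of Nt5c2 on the opposite strand. Nt5c2, a gene for a cytosolic nucleotidase, averaged 19.8 in Meis2-CKO and 20.5 in Ctrl in the authors' deposited table, with a log2 fold change of -0.04. Pcgf6, a Polycomb-group gene on the other side of Ina, averaged 15.4 in Meis2-CKO and 16.5 in Ctrl there. None of 31 analysed genes within 1000 kb of Ina was called, and their log2 fold changes ran between -0.43 and 0.27. For Nefh, on chromosome 11 at 4938754 to 4948064, none of 32 analysed genes within 1000 kb was called; of the nearest, Thoc5 averaged 32.9 in Meis2-CKO and 35.4 in Ctrl, and Ap1b1 averaged 30.0 in Meis2-CKO and 27.3 in Ctrl.

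**Figure D4:**
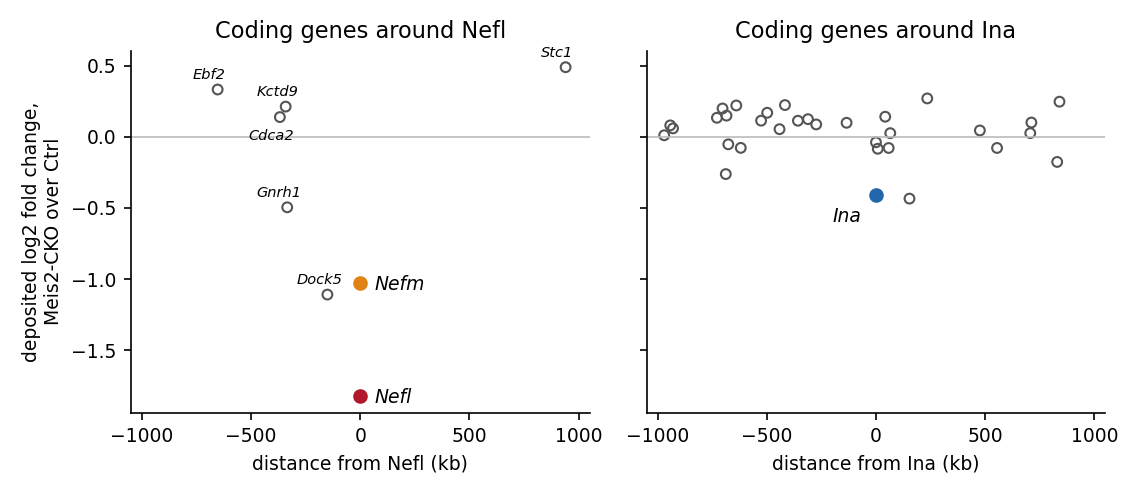
Deposited log2 fold change of Meis2-CKO over Ctrl (y axis) for coding genes within 1000 kb of Nefl (left) and Ina (right) against the distance from that gene in kb; the filled points are the filament genes and open points their neighbours. Around Nefl only Dock5, at a mean under 1 in both genotypes, reached a log2 fold change as low as that of Nefm.

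The 250 bases before the RefSeq start of Ina are shown because Ina had the highest level of the set and was the only one of its genes for which a promoter sequence was used. The sequence is from RefSeq on GRCm38.p6, chr19:47014431-47014680, plus strand, with matches to GGGCGG, the core of a GC box, on either strand in capitals.
Ina: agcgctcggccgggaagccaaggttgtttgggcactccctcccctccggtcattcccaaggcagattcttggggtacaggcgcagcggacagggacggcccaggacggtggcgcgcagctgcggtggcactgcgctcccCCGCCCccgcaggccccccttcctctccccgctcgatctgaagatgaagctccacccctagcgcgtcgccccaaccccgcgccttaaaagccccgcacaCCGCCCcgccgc

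This window had a GC content of 70.8%, above that of 91.7% of the 32851 start sites in the same table, whose median was 52.4%. It held 2 matches to GGGCGG, both on the opposite strand and in separate places; 32.7% of all windows held at least 1. TGACAG, a core bound by MEIS proteins, was not among its letters on either strand and was held by 15.9% of all windows. TAATTA, a homeodomain core, was not among them either and was held by 4.84%. TATAAA was likewise not there and was held by 12.4% of windows. The cyclic AMP response element TGACGTCA was absent from these letters and was held by 1.55%, and CCAAT was likewise absent and was held by 33.8%.

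Most other intermediate filament genes listed here did not share the lower means. Of 19 genes in lists of other type IV, type III, lamin, keratin and lens filaments, 10 were analysed. None was called, and 9 had a log2 fold change above 0. Bfsp1, Bfsp2 and Krt222, among those above 0, had means under 1 in both genotypes. Among all genes, 46.7% lay below 0, 0.78% were called in either direction, and the median log2 fold change was 0.01. Nes, the nestin filament of progenitors, averaged 126 in Meis2-CKO and 104 in Ctrl in the authors' deposited table, with a log2 fold change of 0.29 (unadjusted p = 0.0123, adjusted p = 0.918). Vim, the vimentin filament of radial glia, averaged 410 in Meis2-CKO and 372 in Ctrl in the authors' deposited table, with a log2 fold change of 0.16.

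Summed, Nes and Vim stood at 536 in Meis2-CKO and 477 in Ctrl, next to 63.1 in Meis2-CKO and 101 in Ctrl for Nefl, Nefm and Ina. The summed signal was thus 1.13 times the Ctrl value for Nes and Vim and 0.626 times the Ctrl value for Nefl, Nefm and Ina. Vim made up most of the first sum, and neither Nes nor Vim was called. Nefl, Nefm and Ina were chosen by this same contrast, so the difference between these ratios is not a test. Among the nuclear lamins Lmnb1 averaged 238 in Meis2-CKO and 219 in Ctrl, Lmnb2 33.4 in Meis2-CKO and 33.2 in Ctrl, and Lmna 2.90 in Meis2-CKO and 2.60 in Ctrl. Synm, the synemin gene, averaged 1.76 in Meis2-CKO and 1.72 in Ctrl, and the keratin gene Krt10, the one member below 0, 5.07 in Meis2-CKO and 6.62 in Ctrl.

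Genes that move, cross-link and degrade neurofilaments gave no call. Of 21 genes in this list 19 were analysed, 10 lay above 0 and 9 below, and the median log2 fold change was 0.01, the same as that of all genes. The 2 with the smallest p were Kif5a, the kinesin heavy chain that carries neurofilaments along axons, at 33.6 in Meis2-CKO and 37.8 in Ctrl in the authors' deposited table (unadjusted p = 0.350), and Dst, the cytoskeletal linker dystonin, at 23.3 in Meis2-CKO and 26.7 in Ctrl (unadjusted p = 0.371).

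All 21 kinase and phosphatase genes that act on neurofilament chains were analysed and none was called, with a median log2 fold change of -0.01. Csnk2a1, a casein kinase catalytic subunit, averaged 83.2 in Meis2-CKO and 73.1 in Ctrl in the authors' deposited table (unadjusted p = 0.0994). Camk2b, a calcium/calmodulin-dependent kinase subunit, averaged 10.4 in Meis2-CKO and 14.6 in Ctrl in the authors' deposited table (unadjusted p = 0.103). Cdk5, a kinase of the tail repeats of Nefm and Nefh, averaged 32.8 in Meis2-CKO and 36.7 in Ctrl. Among RNA-binding protein genes linked to neurofilament mRNAs, 9 of 10 matched by symbol, none was called, and the median was 0.06. With Rgnef matched under its other name Arhgef28, all 10 were analysed, again with no call, and the median was 0.05; Hnrnpk stood at 919 in Meis2-CKO and 872 in Ctrl.

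Genes of the wider neuronal cytoskeleton had mostly lower means. Of 22 microtubule and actin scaffold genes 21 were analysed, and 18 lay below 0 with a median of -0.12 on the log2 scale. None was called, although 6 had an unadjusted p under 0.05, all lower. Among all genes, 46.7% lay below 0 and 2.17% had such a p in either direction. The list was chosen with earlier results of these data known, and nothing is read from its counts. Stmn4, a stathmin gene, had the smallest p of these, at 91.9 in Meis2-CKO and 120 in Ctrl in the authors' deposited table, with a log2 fold change of -0.37 (adjusted p = 0.260). Gap43, the growth-cone protein, averaged 79.2 in Meis2-CKO and 108 in Ctrl in the authors' deposited table, with a log2 fold change of -0.44 (adjusted p = 0.355). The neuronal tubulin Tubb3 averaged 801 in Meis2-CKO and 887 in Ctrl (log2 fold change -0.14).

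In a list of 15 axon and maturation genes, all analysed, 12 lay below 0 with a median of -0.15, and 1 was called. That gene was L1cam, an axonal adhesion molecule, at 49.8 in Meis2-CKO and 76.0 in Ctrl in the authors' deposited table, with a log2 fold change of -0.60 (adjusted p = 0.0013). The neuronal nuclear gene Rbfox3 averaged 9.54 in Meis2-CKO and 9.86 in Ctrl (log2 fold change -0.03). The deposited log2 fold changes of Nefl and Nefm lay under that of every analysed gene of the scaffold and axon lists, the lowest of which was L1cam. Nefl and Nefm were chosen by these same values, so this order is not a test, and these differences between genes were not tested. The 3 called direct-pathway striatal neuron genes, Isl1 (-2.19), Ebf1 (-2.46) and Tac1 (-2.95), lay lower than Nefl.

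**Figure D5:**
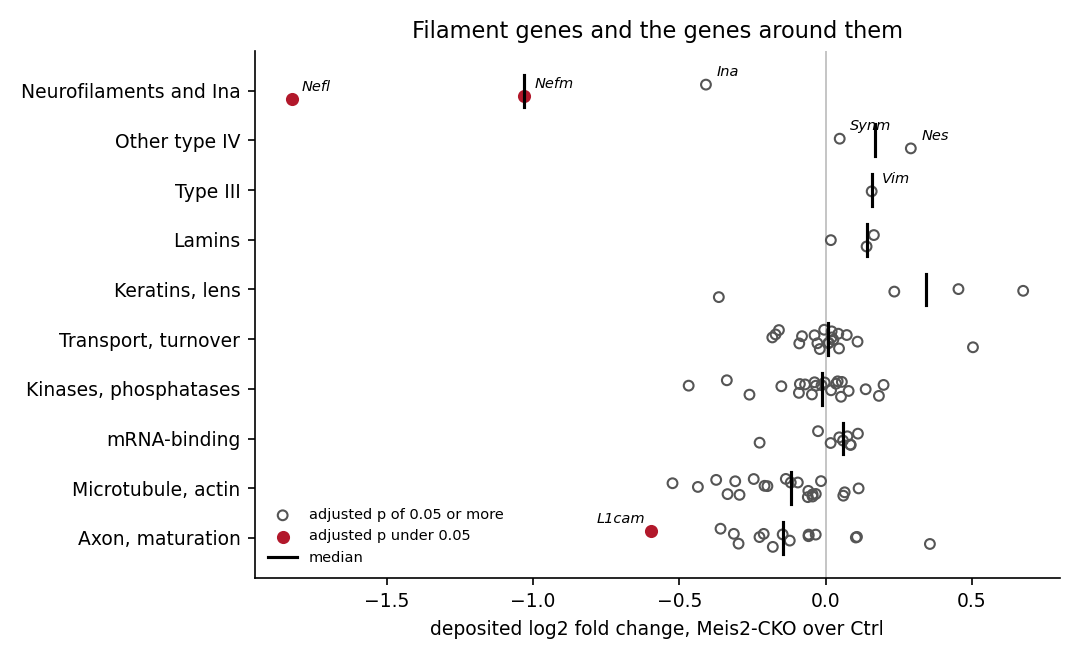
Deposited log2 fold change of Meis2-CKO over Ctrl (x axis) for Nefl, Nefm and Ina and for 9 gene lists (rows); each circle is a gene matched by its listed symbol, filled where the authors' adjusted p was under 0.05, and a bar marks the median of each row. Nefl at -1.83 and Nefm at -1.03, chosen by these same values, lie to the left of all genes in the other rows, whose only filled point is L1cam at -0.60. Marker genes of cell types, some of which lay lower than Nefl, are not drawn.

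Markers of the cell types that the dissection can hold are given beside these values, since neurofilament RNA is not limited to one kind of neuron; their part in the result was not tested. Among all genes, 46.7% lay below 0 and 0.544% were called lower, and nothing is read from the counts within the marker lists. Of 8 direct-pathway striatal neuron genes 7 were analysed, 6 lay below 0 and 3 were called lower. Their summed mean was 43.0 in Meis2-CKO and 121 in Ctrl. Isl1, their LIM homeodomain factor, averaged 12.5 in Meis2-CKO and 57.9 in Ctrl in the authors' deposited table, with a log2 fold change of -2.19 (adjusted p = 7.8e-26), and Ebf1 and Tac1 were the other two. Of 6 analysed indirect-pathway genes none was called, but 5 lay below 0 (median -1.01 on the log2 scale), and 3 of these had an unadjusted p under 0.05. Adora2a averaged 1.84 in Meis2-CKO and 5.17 in Ctrl, Drd2 averaged 1.05 in Meis2-CKO and 3.59 in Ctrl, and Six3 averaged 16.7 in Meis2-CKO and 25.5 in Ctrl. The list summed to 103 in Meis2-CKO and 110 in Ctrl, a sum made up mostly of Sp9, at 44.5 in Meis2-CKO and 34.3 in Ctrl, and Grik3, at 38.4 in Meis2-CKO and 39.1 in Ctrl. Only 3 of 8 cholinergic neuron genes were analysed, with a sum of 5.54 in Meis2-CKO and 6.12 in Ctrl, and none was called. Of these 2 lay below 0, among them Zic4, at 1.315 in Meis2-CKO and 2.48 in Ctrl (log2 fold change -0.84). Lhx8, the 1 gene above 0, averaged 3.72 in Meis2-CKO and 3.08 in Ctrl.

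All 8 ventricular-zone genes lay above 0, without a call, and summed to 1831 in Meis2-CKO and 1618 in Ctrl. Pallial glutamatergic genes summed to 214.5 in Meis2-CKO and 187.5 in Ctrl (7 of 8 above 0), and medial eminence interneuron genes to 140 in Meis2-CKO and 136 in Ctrl. Vascular genes summed to 56.6 in Meis2-CKO and 54.8 in Ctrl, microglial genes to 32.7 in Meis2-CKO and 31.8 in Ctrl, and red blood cell genes to 2709 in Meis2-CKO and 2695 in Ctrl. The 6 Schwann and oligodendrocyte genes summed to 31.9 in Meis2-CKO and 30.2 in Ctrl. This sum was made up mostly of Olig2, at 21.2 in Meis2-CKO and 19.6 in Ctrl. Of these genes 5 lay above 0. Sox10, the 1 below 0, had low means, at 0.31 in Meis2-CKO and 0.515 in Ctrl. The 5 meningeal genes were low, at a sum of 2.18 in Meis2-CKO and 4.01 in Ctrl, and none was called in any of these lists. None of the 6 peripheral and motor neuron genes was analysed.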

How the data were processed

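Tools in the submitters' processing notes are HISAT2 2.1.0, StringTie 1.3.1 and FastQC 0.11.5, with the builds mm10 and GRCm38.p2; their roles are not stated. Per the file headers, the deposited signal is a mean over replicates of each genotype, made by the authors; its unit is not named. The authors also deposited a log2 fold change of Meis2-CKO over Ctrl, a p-value and an adjusted p-value, per the file headers; no source used here names the tool. Benjamini-Hochberg adjustment of the p-values over all 16913 genes gives the deposited adjusted values. The deposited log2 fold change exceeds the log2 ratio of the deposited means by a median of 0.012 among genes with means over 10.

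A further 8 columns of single libraries have names that match no sample label and were not used, so no test across samples was run. Whether the 4 samples per genotype are separate embryos or pools is not stated beyond their number. Gene positions and exon lengths are those of GENCODE M21 (GRCm38), matched by Ensembl ID for 16861 genes; promoter bases came from RefSeq (GRCm38.p6). Members and lists were chosen with earlier results of these data known. Genes were named by rule: the members, Meis2, other filament genes with a mean of at least 1, called members of each list or else the 2 with the smallest p, the nearest analysed neighbours, and the 3 genes nearest in both means. Cdk5, Tubb3, Rbfox3, Uchl1, Snap25, Lhx8, Drd2, Sp9, Grik3, Sox10, Bfsp1, Bfsp2, Krt222, Eif2s3y and Xist were added after their values were seen. For lists of marker genes mostly sums are given. The results for a few genes that the rule names are not reported here. The adjustments were checked on simulated p-values. Alternatives were a minimum mean of 1 or 2, coding genes of 300 nt or more, the Benjamini-Yekutieli adjustment, a fold change of 1.5, a pseudocount of 1, centring and rescaling; those added after seeing the data left out Y-linked genes and Xist or took the plain ratio of means. Software was pandas 2.3.3, scipy 1.17.1, matplotlib 3.10.9 and numpy 2.4.6 under Python 3.11.15.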

Additional observations from a re-analysis of the deposited data

How the results depend on the processing

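The calls of Nefl and Nefm as lower, and the lack of a call for Ina, held under each alternative that gave an adjusted p. Those alternatives filtered or adjusted the same deposited p-values, so they do not cover spread between samples, embryo sex or the shared stretch of Nefl and Nefm. The others gave a log2 fold change only. The adjusted p of Nefl ran between 0.00147 and 0.0208 and that of Nefm between 0.00173 and 0.0245, both highest under the Benjamini-Yekutieli adjustment. For Ina it ran between 0.254 and 1. With a pseudocount of 1 the log2 fold changes were -1.59 for Nefl, -0.99 for Nefm and -0.41 for Ina. Under centring, rescaling and the plain ratio of the deposited means they ran between -1.88 and -1.84 for Nefl, -1.05 and -1.04 for Nefm, and -0.42 and -0.41 for Ina. Adjusted again among protein-coding genes of 300 nt or more, the counts over the whole table were 35 lower and 4 higher, against 92 and 40 over all genes, with fewer genes tested. No paired analysis was possible because the names of the single-library columns match no sample label, and leaving out each replicate was not run for the same reason. The depth is unknown, so no interval can be given for the low mean of Nefl in Meis2-CKO.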

Other observations

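The Gene Ontology term neurofilament, as carried by the table, holds 7 analysed genes, of which 6 had a log2 fold change below 0. Besides Nefl, Nefm and Ina, the gene with the lowest value was Pcp4, a small calmodulin-binding protein of striatal and other neurons, at 5.92 in Meis2-CKO and 12.2 in Ctrl in the authors' deposited table, with a log2 fold change of -1.01 (unadjusted p = 0.00334, adjusted p = 0.332). Nrp1 averaged 4.39 in Meis2-CKO and 4.24 in Ctrl, and Shank2 averaged 8.95 in Meis2-CKO and 10.2 in Ctrl. Of 8 genes under neurofilament cytoskeleton organization, Nefl and Nefm were the 2 called. Arhgef28, another name for Rgnef, whose product binds neurofilament light chain mRNA, averaged 1.29 in Meis2-CKO and 1.45 in Ctrl. Across the broader term intermediate filament, 16 of 32 genes lay below 0, and 2 were called, again Nefl and Nefm. These terms were looked up after the values were seen. They contain Nefl, Nefm and Ina, which were chosen by this same contrast. Among all genes, 46.7% lay below 0 and 0.78% were called in either direction, and nothing is read from the counts within the terms.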
